A study of Mus musculus with 2 samples.

Results

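The cells described here are barcodes from mouse bone marrow that carried many transcripts of S100a8 and S100a9, the cytosolic calcium-binding proteins of neutrophils, and few of the secondary granule genes Ngp, Camp and Ltf, which makes them candidates for mature neutrophils. A barcode was taken when it had at least 200 genes and at most 10% mitochondrial transcripts, S100a8 and S100a9 at 2% or more of its unique molecular identifiers (UMIs, each standing for 1 captured transcript), and Ngp, Camp and Ltf under 1%. It also had to hold at most 1 UMI of the cycle genes Mki67 and Top2a, under 1% of the primary granule genes Mpo, Elane, Prtn3 and Ctsg, at most 2 UMIs of Csf1r, F13a1 and Ccr2, under 5% hemoglobin and at most 1 UMI of Cd79a and Cd79b. This gave 1162 of 12259 filtered cells, of which 24 came from the Itgb3-null library and 1138 from its control. They are called secondary-low cells, after the rule. The cells that met every other limit but held 1% or more of Ngp, Camp and Ltf, 415 and 1205 in number, are called secondary-high cells and serve as the nearest comparison.

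Neutrophils are made in the marrow from dividing progenitors that fill their granules in waves. Primary granule proteins such as myeloperoxidase come first, then the secondary granule proteins lactoferrin (Ltf), cathelicidin (Camp) and neutrophilic granule protein (Ngp), and last the gelatinase granule proteins such as Mmp9. A cell that has passed the secondary wave switches those genes off, gains the G-CSF receptor Csf3r and the chemokine receptor Cxcr2, and is held in the marrow until Cxcr2 ligands and loss of Cxcr4 signalling release it to the blood.

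The null-labelled library came from bone marrow of C57BL/6 mice with the genotype Apoe(-/-), Itgb3(-/-), and the control-labelled library from Apoe(-/-), Itgb3(+/+) mice of the same strain. Both were labelled atherosclerosis at 6 months of age, so both lack Apoe, whose loss raises plasma cholesterol in mice, and they differ by label in Itgb3, the integrin beta 3 subunit of platelets, osteoclasts and other cells. Transcripts were counted from 3′ ends in droplets with 10x Genomics chemistry, and the comparison asks how marrow cells without integrin beta 3 differ from those with it. Each genotype was 1 library, and the number of animals behind it was not given in the sources used here. No test between genotypes is therefore possible, and every 95% interval below covers counting error only.

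The libraries differed in depth and makeup, which bears on all comparisons. The null-labelled matrix held 44694854 UMIs in 4281 barcodes and the control-labelled matrix 79192158 UMIs in 12764 barcodes, and filtering left 2974 and 9285 cells with medians of 9363.5 and 4999 UMIs. The secondary-low cells summed to 127255 UMIs in the null-labelled and 2718166 UMIs in the control-labelled library, with medians of 4020.5 UMIs (596 to 21615) and 2280 UMIs (536 to 11772) per cell. Between the libraries 11 barcodes were shared, of which 1 was a secondary-low cell.

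Of the 24 null-labelled cells, 2 stood apart. They held 14393 and 21615 UMIs, 28.3% of all UMIs of the 24, and carried 26 and 18 UMIs of 10 monocyte and macrophage markers, where 5 UMIs were taken as many. They supplied all 35 UMIs of the monocyte gene Ms4a6c and 2238 of 2244 UMIs of the acute-phase gene Saa3, and had no UMI of Retnlg, Mmp9 or Cxcr2. The 22 other cells held 91247 UMIs with a median of 3906. Among control-labelled secondary-low cells 5 passed the same limit. Results that move by over 1.5 times when these cells are left out in both libraries are given both ways.

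Markers of other cell types were low in sum, apart from those of monocytes and macrophages in the null-labelled cells. In the null-labelled cells no UMI was found of 8 eosinophil, 8 megakaryocyte and 8 stem cell markers, and the summed level was 7.86 CPM (UMIs of a gene per 1000000 UMIs of these cells) for B and plasma cell markers and 78.6 CPM for erythroid markers, against 23.5 CPM and 95.3 CPM in the control-labelled cells. Monocyte and macrophage markers summed to 1179 CPM in the null-labelled cells (0 to 3960 CPM per cell) and 104 CPM in the control-labelled cells (0 to 7032 CPM per cell). All 4 monocyte and macrophage markers with enough UMIs to be counted were 2-fold or more higher in the null-labelled cells, against 33.6% of all genes. Their median log2 ratio was 3.87. The macrophage markers C1qa and C1qc were at 0 in the null-labelled cells, while Ctss, the lysosomal cathepsin S, gave 88 UMIs in 19 of those cells. T and NK cell markers summed to 189 CPM in the null-labelled library, all in 1 cell, and 61.8 CPM in the control-labelled library. Of the basophil genes, Prss34 had 1 UMI in the null-labelled cells and 274 UMIs in 8 control-labelled cells. The part of these other cells in the results was not tested beyond leaving out the monocyte-marker cells.

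The label of mature neutrophils was checked against 5 marker genes. In the control-labelled library it held: 1118 of 1138 cells (98.2%) carried at least 3 of Csf3r, Cxcr2, Il1r2, Mmp9 and Retnlg. In the null-labelled library 18 of 24 cells (75%) did. B cells, defined by 5 or more UMIs of Cd79a and Cd79b, should lack these genes and show the background: 0.760% of 526 null-labelled and 3.84% of 2164 control-labelled B cells had at least 3 of the markers, at median depths of 5122 and 2454 UMIs. The markers do not single out secondary-low cells, because 87.2% of null-labelled and 78.9% of control-labelled secondary-high cells also had at least 3.

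Itgb3 itself was near the limit of detection. It gave 1 UMI (7.86 CPM) in the null-labelled cells and 41 UMIs (15.1 CPM) in 3.25% of the control-labelled cells, a null-over-control ratio of 0.521 (0.0129 to 3.07), so no difference was detectable at this depth. Secondary-high cells of both libraries carried Itgb3 transcripts. With Ngp, Camp and Ltf at 10% or more, 5 to 10%, 3 to 5% and 1 to 3%, null-labelled cells held 28, 24, 9 and 11 UMIs. That was 15.1, 15.6, 19.7 and 43.7 CPM, against 31.5, 29.9, 47.1 and 30.1 CPM in control-labelled cells. The deleted stretch of the allele is not stated in the labels, so 3′ counts do not check the genotype. Its partner Itga2b had 0 and 6 UMIs and Itgav 2 and 39 UMIs in the null-labelled and control-labelled cells. Apoe transcripts gave 7 UMIs (55.0 CPM) and 175 UMIs (64.4 CPM), a ratio of 0.854 (0.339 to 1.80) that was 0.210 without the monocyte-marker cells.

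Secondary-low cells were scarce in the null-labelled library. They made up 0.807% of its filtered cells (24 of 2974, exact Clopper-Pearson interval 0.518 to 1.198) and 12.3% of control-labelled cells (1138 of 9285, 11.6 to 12.9), a share 15.2-fold lower (10.2 to 22.7). Secondary-high cells made up 14.0% (12.7 to 15.3) and 12.98% (12.3 to 13.7), with a ratio of 1.08 (0.969 to 1.19). Cells that met all limits but that on secondary granule genes, called gated cells, were also fewer, at 439 (14.8%) and 2343 (25.2%), a ratio of 0.585 (0.533 to 0.642). Of these gated cells, 24 of 439 (5.47%, 3.53 to 8.03) in the null-labelled and 1138 of 2343 (48.6%, 46.5 to 50.6) in the control-labelled library were secondary-low.

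The distribution behind that limit differed as a whole. In the null-labelled library the median share of Ngp, Camp and Ltf among all gated cells was 7.99% of UMIs, and in the control-labelled library 1.23%. Cells under 0.1% numbered 5 (1.14% of gated cells) in the null-labelled library and 692 (29.5%) in the control-labelled library. Cells at 5 to 10% numbered 161 (36.7%) and 351 (14.98%). The classes are of unequal width, so their heights do not show where cells are densest.

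**Figure D1:**
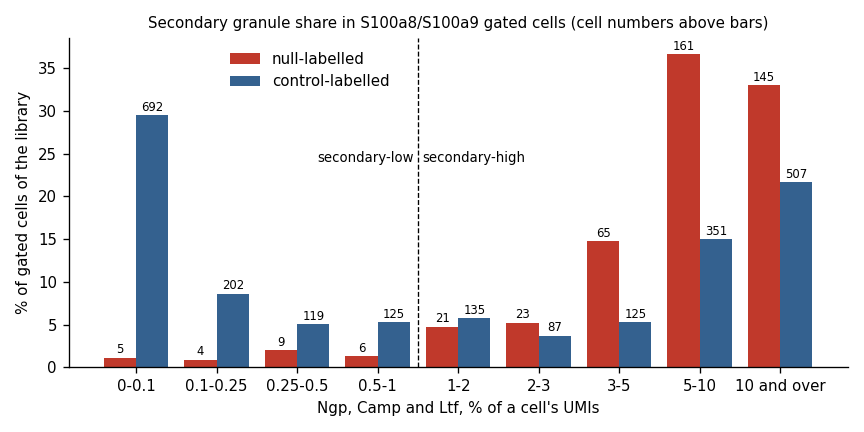
Share of gated cells (vertical axis, % of the gated cells of each library) by the share of Ngp, Camp and Ltf in a cell's UMIs (horizontal axis), with cell numbers above the bars, red for the null-labelled and blue for the control-labelled library. Left of the dashed line are the 24 null-labelled and 1138 control-labelled secondary-low cells, and in the control-labelled library 692 cells lie in the lowest class.

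Cells just inside the 1% limit, at 0.5 to 1%, numbered 6 in the null-labelled and 125 in the control-labelled library, and cells just outside it, between 1% and 1.5%, numbered 10 and 71. Their levels give the edge of the group without any test. Retnlg stood at 17798 CPM inside and 10578 CPM outside in the null-labelled library, and at 55689 CPM inside and 54918 CPM outside in the control-labelled library. Cxcr2 stood at 179 CPM inside and 411 CPM outside in the null-labelled cells and at 1034 and 853 CPM in the control-labelled cells. At the S100 limit, 5 null-labelled and 11 control-labelled cells lay just inside, at 2 to 4%, with Csf3r at 0 and 4266 CPM, and 3 and 8 cells just outside, at 1 to 2%, with Csf3r at 0 and 3788 CPM. In the control-labelled library Csf3r was thus high on both sides of the S100 limit, where Retnlg stood at 2379 CPM inside and 522 CPM outside.

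The rule asked for 2% S100a8 and S100a9, but the cells that passed differed far above that. The share was 12.8% of UMIs at the median in null-labelled cells (2.18 to 31.4) and 31.8% in control-labelled cells (2.01 to 50.7). Of the 24 null-labelled cells 8 lay under 10%, as did 62 of the 1138 control-labelled cells. S100a8 and S100a9 fill so much of a control-labelled cell that every other gene's CPM there is pressed down, and this was followed with other scalings below. Among B cells, which should lack these transcripts, S100a8 and S100a9 took 0.374% of summed UMIs in the null-labelled and 2.22% in the control-labelled library. The median B cell held far less, 0.0255% and 0.0820%. Only 0.760% and 5.04% of B cells reached 2%, with highest values of 16.0% and 34.9%, so the sums do not give the level of a typical B cell.

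Of the 5 markers, 4 were lower in the null-labelled cells and 1 was higher. Csf3r, the receptor through which G-CSF drives neutrophil output, had 0 to 4 UMIs per null-labelled cell (median 0) and 0 to 12 per control-labelled cell (median 2). Summed, that was 149 CPM in null-labelled and 1102 CPM in control-labelled cells, 7.38-fold lower (4.72 to 12.3). Cxcr2, the receptor for the chemokines that call neutrophils out of the marrow, had 0 to 5 UMIs (median 0) in null-labelled and 0 to 15 UMIs (median 3) in control-labelled cells, or 181 and 1429 CPM. Cells with a Cxcr2 UMI were 11 of 24 in the null-labelled and 1078 of 1138 in the control-labelled library, a ratio of CPM of 0.127 (0.0801 to 0.190).

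Retnlg, a resistin-like secreted protein of neutrophils, reached 0 to 154 UMIs (median 36.5) in null-labelled and 0 to 611 UMIs (median 107.5) in control-labelled cells. Its summed level was 9524 and 47347 CPM, a ratio of 0.201 (0.190 to 0.213). This ratio depended on S100 share, since among cells under 20% S100a8 and S100a9 its log2 ratio was -0.30, against -2.31 over all secondary-low cells. The monocyte-marker cells held 38.1% of the null-labelled UMIs under 20%, and without them Retnlg was higher there, at 13559 CPM in null-labelled and 10351 CPM in control-labelled cells, a log2 ratio of 0.39. Mmp9, the gelatinase, had 0 to 29 UMIs (median 5) in null-labelled and 0 to 37 UMIs (median 6) in control-labelled cells, a ratio of 0.458 (0.392 to 0.533). For Mmp9 the libraries overlapped over almost the whole range, and without the monocyte-marker cells its ratio was 0.641.

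Il1r2 went the other way. The decoy receptor that soaks up interleukin 1 without signalling had 0 to 16 UMIs (median 7) in null-labelled cells, where 22 of 24 carried it, and 0 to 5 UMIs (median 0) in control-labelled cells, where 33.1% did. At 1399 and 192 CPM the ratio was 7.28 (6.11 to 8.65). Ly6g, the surface antigen used to sort mouse neutrophils, was low: 14 UMIs (110 CPM) in 10 null-labelled cells and 2128 UMIs (783 CPM) in 59.4% of control-labelled cells, a ratio of 0.141 (0.0767 to 0.236). This ratio depended on S100 share. At 2 to 10%, 10 to 20% and 20 to 60% S100a8 and S100a9, null-labelled cells had 97.9, 162 and 60.9 CPM on 5, 7 and 2 UMIs. Control-labelled cells had 44.8, 168 and 841 CPM there, so Ly6g was clearly lower only in the last class.

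**Figure D2:**
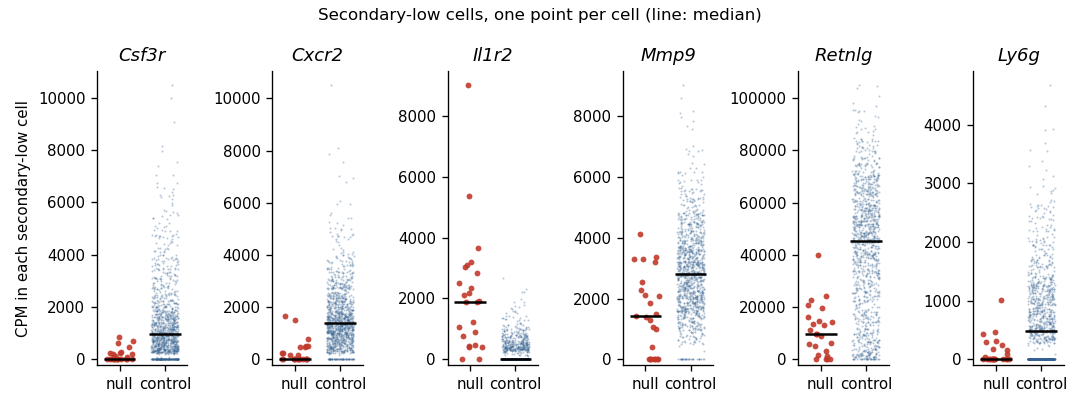
CPM of 6 genes in each secondary-low cell (vertical axes, linear), null-labelled cells in red left of control-labelled cells in blue, with the median as a line. Csf3r, Cxcr2 and Ly6g sit at a median of 0 in the null-labelled cells, and Il1r2 sits at a median of 0 in the control-labelled cells.

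Detection depends on depth, so each cell was also thinned to 1000 UMIs, which left out 2 null-labelled and 50 control-labelled cells. A Csf3r UMI was then found in 13.6% of null-labelled and 63.3% of control-labelled cells, and a Cxcr2 UMI in 31.8% and 74.9%. Il1r2 was found in 77.3% and 18.2%, and Ly6g in 9.09% and 42.2%. In thinned B cells of the null-labelled and control-labelled libraries these shares were 0.190% and 0.886% for Csf3r, 0% and 1.45% for Cxcr2, 0.570% and 0.420% for Il1r2, and 0% and 1.82% for Ly6g. The order of the libraries was thus as in the summed CPM, and each share of secondary-low cells lay above that in B cells.

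The same genes were followed down the secondary granule share, from 10% or more to under 1%. In the control-labelled library Cxcr2 read along that series 97.7, 362, 643, 811 and 1429 CPM and Csf3r 89.9, 174, 232, 306 and 1102 CPM. In the null-labelled library Cxcr2 read 107, 189, 369, 366 and 181 CPM and Csf3r 36.8, 52.8, 79.0, 127 and 149 CPM. At the last step, into the secondary-low cells, Csf3r and Cxcr2 were higher than in the class before in the control-labelled library. In the null-labelled library Cxcr2 was lower there, at 181 CPM (115 to 271) after 366 CPM (295 to 448). The monocyte-marker cells held no Cxcr2 UMI. Without them Cxcr2 stood at 252 CPM on 23 UMIs in the null-labelled secondary-low cells, so the size of the drop depended on them. No interval was computed for that value, so whether Cxcr2 dropped at all without these cells was not settled. Each class of the series pools the cells of 1 library, so the trends have no replicate.

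Retnlg followed the control-labelled pattern at a lower level, at 936, 2829, 8135, 8207 and 9524 CPM in the null-labelled library and 1852, 15099, 34795, 49487 and 47347 CPM in the control-labelled library. Ly6g lay between 24.9 and 111 CPM in every null-labelled class and between 783 and 1396 CPM in every control-labelled class. Il1r2 was higher in the null-labelled library in all 5 classes, from 903 CPM at 10% or more to 1399 CPM under 1%, against 48.4 and 192 CPM in the control-labelled library. Chil3, a chitinase-like protein of immature neutrophils, dropped along the series from 21330 to 3583 CPM within the null-labelled library and from 8671 to 81.7 CPM within the control-labelled library. Most of these differences between the libraries were therefore present in secondary-high cells too.

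**Figure D3:**
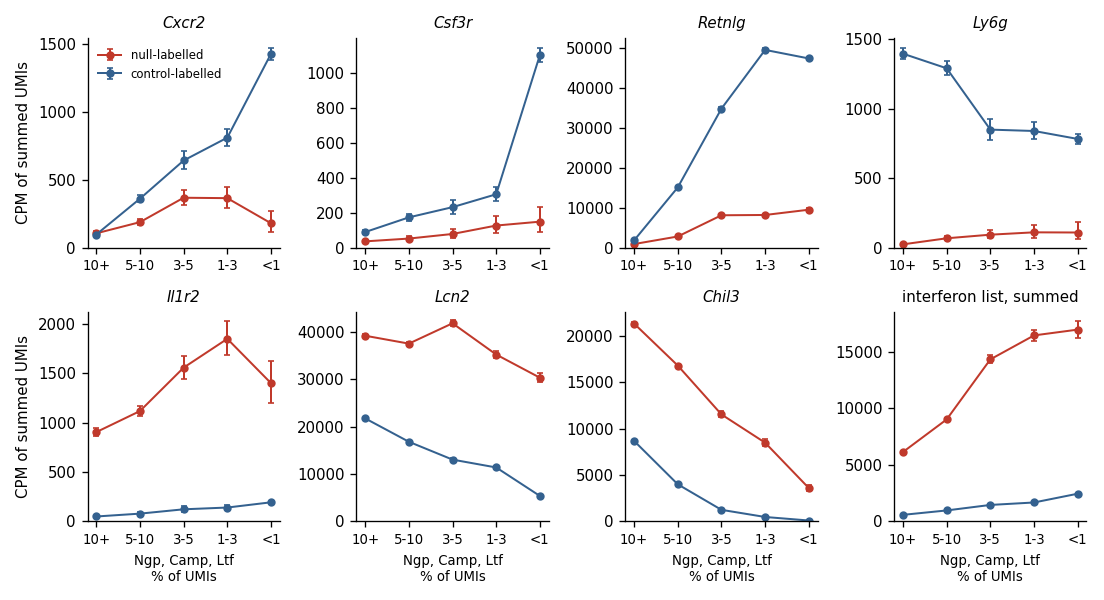
Summed CPM (vertical axes) by secondary granule share of the cells (horizontal axes, from 10% or more at left to under 1%, the secondary-low cells, at right), in red for the null-labelled and in blue for the control-labelled library, with exact Poisson 95% intervals as bars. Cxcr2 reaches 1429 CPM at the right end in the control-labelled library and 181 CPM in the null-labelled library, while the summed interferon list reaches 2439 and 16966 CPM.

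Genes were then counted across the transcriptome. The 2774 genes counted had 50 CPM or more in one or both libraries and together at least 30 UMIs. Of these, 933 (33.6%) were 2-fold or more higher in the null-labelled cells and 456 (16.4%) were 2-fold or more lower, and the median log2 ratio was 0.44. In secondary-high cells these shares were 15.9% and 12.5% of 2069 genes, with a median of 0.065. Without the monocyte-marker cells they were 29.6% and 14.8% of 2699 genes. The split rests on the scaling: with TMM factors 419 genes (15.1%) were higher and 963 (34.7%) lower, since every log2 ratio shifts by -0.88. Any ratio between 1 and 1.84 turns below 1 there. Totals without S100a8 and S100a9 shift it by -0.35 and give 724 (26.1%) higher and 625 (22.5%) lower. The split also rests on the cells taken. Among cells under 20% S100a8 and S100a9, 220 of 1596 genes (13.8%) were higher and 421 (26.4%) lower with total UMIs. Gene groups are therefore read against the median of all genes, 0.44 with total UMIs and -0.44 with TMM factors. Counts within a list are likewise read against the shares over all genes. These were 33.6% higher and 16.4% lower with total UMIs, and 15.1% and 34.7% with TMM factors.

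**Figure D4:**
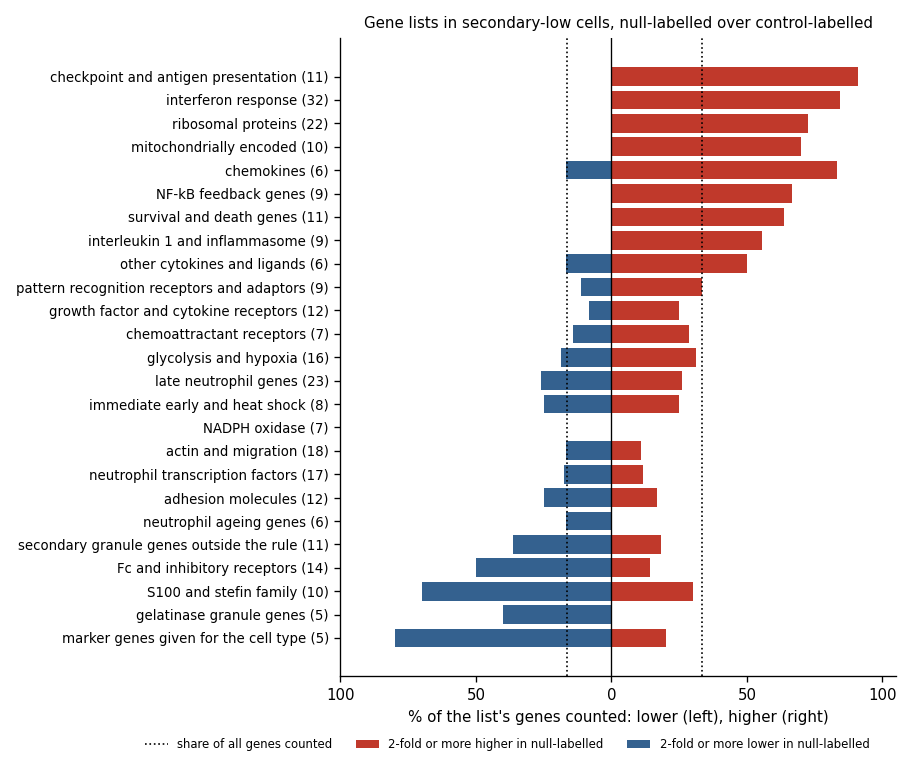
Share of each gene list (horizontal axis, % of the list's counted genes, whose number is in brackets) that was 2-fold or more higher (red, right) or lower (blue, left) in null-labelled than in control-labelled secondary-low cells. Lists with at least 5 counted genes are drawn, other cells' markers and the rule's own genes left out, beside dotted lines at the shares over all 2774 genes (33.6% right, 16.4% left), and the checkpoint list reaches 90.9% and the interferon list 84.4% to the right.

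Interferon-response genes were among the higher groups. These are the antiviral effectors, sensors and transcription factors that cells switch on through the interferon receptors. Of 32 counted members 27 were 2-fold or more higher in the null-labelled cells and none was 2-fold lower, with a median log2 ratio of 3.27. With TMM factors 24 were higher and 1 lower, at a median of 2.39. Isg15, the ubiquitin-like modifier (chromosome 4 from 156199424 to 156200818 on the minus strand), had 217 UMIs (1705 CPM) in 22 of 24 null-labelled cells and 287 UMIs (106 CPM) in 14.8% of control-labelled cells, a ratio of 16.2 (13.5 to 19.3). Gbp2, a guanylate-binding protein that attacks pathogen vacuoles, had 1587 and 29.1 CPM, a ratio of 54.6 (41.9 to 71.8). Rsad2, the antiviral enzyme viperin, had 1485 and 88.3 CPM and a ratio of 16.8 (13.8 to 20.4).

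Ifit2 and Ifit3, which bind viral RNA or its partners, had 61 and 101 UMIs in the null-labelled cells and 7 and 32 UMIs in the control-labelled cells, with ratios of 186 (85.1 to 482) and 67.4 (44.9 to 104). Ifit3 has a near-identical neighbour, Ifit3b, so the division of reads between them is uncertain. The immunity-related GTPase Ifi47 had a ratio of 71.2 (45.9 to 114) and the nucleic acid sensor Zbp1 one of 23.0 (17.5 to 30.2). The other 5 counted members lay within 2-fold. Slfn1 had 299 CPM in null-labelled and 580 CPM in control-labelled cells, a ratio of 0.515 (0.363 to 0.710). Irf9 at 1.21 (0.572 to 2.29), Oas3 at 1.43 (0.939 to 2.10) and Ddx58 at 1.75 (0.960 to 2.96) had intervals that span 1, and with TMM factors their ratios were below 1. Slfn4, named after its value was seen, had a ratio of 1.87 (1.40 to 2.47).

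Summed per cell, the list ran from 5968 to 33811 CPM in null-labelled cells with a median of 20294 CPM. In control-labelled cells it ran from 0 to 32536 CPM with a median of 1854 CPM and 95% of cells below 8299 CPM. The ranges overlapped, but 1033 of 1138 control-labelled cells lay below the lowest null-labelled cell, and 6 (0.527%) reached the null-labelled median. After thinning to 1000 UMIs all 22 null-labelled cells held 3 or more UMIs of the list (median 21), as did 36.3% (33.4 to 39.2) of control-labelled cells (median 2). Hence the 2 deep cells do not set this difference, and without the monocyte-marker cells the list's median log2 ratio was 3.54.

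**Figure D5:**
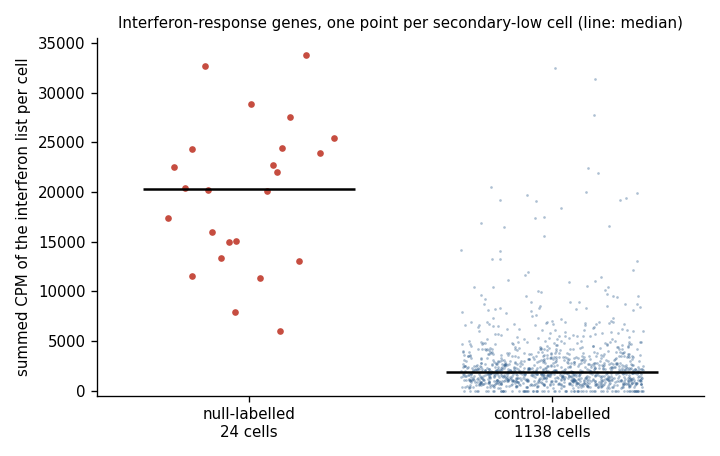
Summed CPM of the interferon-response list (vertical axis, linear) in each secondary-low cell, 24 null-labelled cells in red at left and 1138 control-labelled cells in blue at right, with the median as a line. The null-labelled cells lie between 5968 and 33811 CPM around a median of 20294, and the control-labelled median is 1854.

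The difference was not confined to secondary-low cells. In secondary-high cells 31 of 32 counted members were 2-fold or more higher in the null-labelled library, with a median log2 ratio of 4.39, and the summed list stood at 8762 and 896 CPM. B cells gave 5822 CPM in null-labelled and 704 CPM in control-labelled marrow, and 82.3% and 7.09% of thinned B cells held 3 or more UMIs of the list. Along the falling secondary granule share the summed list went up in both libraries, through 6131, 9016, 14332, 16453 and 16966 CPM in the null-labelled and 568, 958, 1446, 1663 and 2439 CPM in the control-labelled library.

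Promoter sequence is shown for genes at both ends of these comparisons, because interferon-stimulated genes are known to carry response elements close to their start. The 250 bases before the start site were read from RefSeq for GRCm38.p6, written 5′ to 3′ on the gene's strand, with the matched motif in capitals. The motifs were the interferon-stimulated response element (GAAA, any 2 bases, GAAA) for Isg15 and Ifit3, the NF-kB motif (GGG, any 2 bases, TTTCC) for Cxcl2, and the C/EBP motif (TTGC, any 2 bases, AA) for Retnlg, each searched on both strands. In Isg15 (chr4:156200819-156201068, minus strand) 3 overlapping matches begin 78, 72 and 66 bases before the start, in Ifit3 (chr19:34583279-34583528, plus strand) 2 matches begin 156 and 122 bases before it, in Cxcl2 (chr5:90903649-90903898, plus strand) 2 begin at 97 and 78, and in Retnlg (chr16:48872358-48872607, plus strand) 1 begins at 246.
Isg15: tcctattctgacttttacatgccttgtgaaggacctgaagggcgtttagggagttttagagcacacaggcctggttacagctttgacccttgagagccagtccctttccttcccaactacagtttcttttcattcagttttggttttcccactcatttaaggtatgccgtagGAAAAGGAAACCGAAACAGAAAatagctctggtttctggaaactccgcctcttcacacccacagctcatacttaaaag
Ifit3: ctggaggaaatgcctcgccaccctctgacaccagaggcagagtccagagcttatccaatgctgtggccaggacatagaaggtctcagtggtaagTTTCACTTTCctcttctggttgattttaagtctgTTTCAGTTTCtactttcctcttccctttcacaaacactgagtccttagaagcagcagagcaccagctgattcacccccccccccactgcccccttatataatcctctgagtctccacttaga
Cxcl2: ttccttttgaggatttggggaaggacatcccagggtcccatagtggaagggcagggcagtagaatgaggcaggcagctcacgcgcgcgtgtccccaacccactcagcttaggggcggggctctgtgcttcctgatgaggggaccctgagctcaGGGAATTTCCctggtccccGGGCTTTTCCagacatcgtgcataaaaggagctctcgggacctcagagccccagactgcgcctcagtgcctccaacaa
Retnlg: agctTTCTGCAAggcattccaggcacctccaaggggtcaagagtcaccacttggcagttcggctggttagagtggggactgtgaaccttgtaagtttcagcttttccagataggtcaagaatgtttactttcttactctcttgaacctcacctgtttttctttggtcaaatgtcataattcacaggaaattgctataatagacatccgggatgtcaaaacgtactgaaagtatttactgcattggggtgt

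Of the 40 interferon-list genes 31 had a RefSeq promoter, and 18 of these genes (58.1%) held the response element in at least 1 promoter, as did 936 of all 27018 genes (3.46%). The C/EBP motif was found in 2 of the 31 genes and the NF-kB motif in 1, against 10.8% and 1.65% of all genes. Of the 15 genes named as highest 13 had a promoter, of which 2 held the response element, 1 the C/EBP and 1 the NF-kB motif. Of the 15 named as lowest 12 had a promoter, of which 1 held the response element, 3 the C/EBP and 0 the NF-kB motif. A match describes letters only and shows no binding.

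Genes of antigen presentation and of the immune checkpoint were also higher. Of 11 counted members 10 were 2-fold or more higher in the null-labelled cells and none was 2-fold lower, at a median log2 ratio of 2.39 (8 higher and a median of 1.51 with TMM factors). Cd274, the checkpoint ligand PD-L1, had 44 UMIs in 16 of 24 null-labelled cells and 14 UMIs in 1.14% of control-labelled cells, a ratio of 67.1 (36.1 to 133). The peptide transporter Tap1 had 652 and 57.8 CPM, a ratio of 11.3 (8.55 to 14.8), and the immunoproteasome subunit Psmb10 had a ratio of 22.2 (14.7 to 33.6). Beta-2-microglobulin, B2m, had 3434 CPM in null-labelled and 660 CPM in control-labelled cells, a ratio of 5.21 (4.68 to 5.78). The class I heavy chain H2-K1 had a ratio of 5.20 (4.45 to 6.05) and H2-D1 one of 1.72 (1.56 to 1.89), which is below 1 with TMM factors. These heavy chains are close in sequence, so reads may be divided between them with error.

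The chemokine genes split. Of 6 counted, 5 were higher and 1 was lower, with every scaling used. Cxcl2, a ligand of Cxcr2, had 0 to 85 UMIs (median 11) in null-labelled and 0 to 16 UMIs (median 0) in control-labelled cells, 3120 and 197 CPM, a ratio of 15.8 (13.9 to 18.0). Its relative Cxcl3 had 57 UMIs in 11 null-labelled cells and 2 UMIs in the control-labelled cells, a ratio of 609 (161 to 5150). The macrophage inflammatory proteins Ccl3 and Ccl4 had 30 and 20 UMIs against 21 and 20 UMIs, ratios of 30.5 (16.9 to 56.1) and 21.4 (10.9 to 41.8), and a single cell held 63.3% and 80% of those null-labelled UMIs. Ccl5 had 185 UMIs, of which the monocyte-marker cells held 148, and its ratio of 152 (100 to 239) was 42.2 without them. Among cells under 20% S100a8 and S100a9 without the monocyte-marker cells its log2 ratio was -0.62.

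Ccl6, a chemokine of myeloid cells, was the one that was lower. It had 0 to 4 UMIs (median 0) in null-labelled and 0 to 30 UMIs (median 6) in control-labelled cells, where 95.5% carried it. At 110 and 3023 CPM it was 27.5-fold lower. Along the falling secondary granule share it went up in the control-labelled library to that level through 8.9, 136, 295 and 692 CPM, and in the null-labelled library through 2.7, 8.5, 19.7 and 51.7 CPM to 110 CPM.

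Interleukin 1 and inflammasome genes were higher in 5 of 9 counted, with a median log2 ratio of 2.39, and with TMM factors 5 were higher and 1 was lower. Besides Il1r2, the receptor antagonist Il1rn had 652 and 122 CPM in null-labelled and control-labelled cells, a ratio of 5.34 (4.15 to 6.81), and the inflammasome adaptor Pycard had 487 and 45.6 CPM, a ratio of 10.7 (7.74 to 14.6). Caspase-4 (Casp4), which senses bacterial lipopolysaccharide, had a ratio of 6.17 (3.90 to 9.47). Il1b, the cytokine itself, had 104 UMIs in 12 of 24 null-labelled cells and 1424 UMIs in 40.6% of control-labelled cells. Its ratio of 1.56 (1.27 to 1.90) is below 1 with TMM factors, and 1 null-labelled cell held 48.1% of its UMIs. That ratio also depended on S100 share. At 2 to 10%, 10 to 20% and 20 to 60% S100a8 and S100a9, null-labelled cells had Il1b at 333, 1915 and 122 CPM. Control-labelled cells had 2901, 2169 and 353 CPM, so Il1b was not higher in null-labelled cells in any of these classes. At 2 to 10% the monocyte-marker cells held 70.5% of the null-labelled UMIs. The sensor Nlrp3 had 6 UMIs and a ratio of 0.538 (0.196 to 1.19).

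Genes of NF-kB feedback were 2-fold or more higher in 6 of 9 counted, with a median log2 ratio of 2.00, and in 5 of 9 with TMM factors, where 1 was lower. The inhibitor Nfkbia had 1375 CPM in null-labelled and 252 CPM in control-labelled cells, a ratio of 5.45 (4.59 to 6.44), and the deubiquitinase A20, Tnfaip3, had 15 and 18 UMIs, a ratio of 17.8 (8.35 to 37.4). Sod2, the mitochondrial superoxide dismutase, had a ratio of 88.7 (62.2 to 129), which was 49.9 without the monocyte-marker cells. Of the survival and death genes 7 of 11 were 2-fold or more higher and none was 2-fold lower, though with TMM factors 5 were higher and 2 lower. Bcl2a1b, a short-lived BCL-2 relative with near-identical copies, had 20 and 13 UMIs, a ratio of 32.9 (15.6 to 71.9). Mcl1, on which neutrophil survival depends, had 1022 and 967 CPM, a ratio of 1.06 (0.879 to 1.26), which is below 1 with TMM factors.

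Receptors did not move as a block. Of 12 counted growth factor and cytokine receptors 3 were 2-fold or more higher and 1, Csf3r, was 2-fold lower, and the median log2 ratio was 0.036. With TMM factors 1 was higher and 4 (33.3%) were lower, near the 34.7% lower over all genes, and the median was -0.85. The tumour necrosis factor receptor Tnfrsf1b had 299 CPM in null-labelled and 41.2 CPM in control-labelled cells, a ratio of 7.25 (4.88 to 10.6), whereas Tnfrsf1a had 181 and 258 CPM, a ratio of 0.701 (0.441 to 1.06). Il4ra had a ratio of 3.51 (2.23 to 5.35) and the interferon gamma receptor chain Ifngr1 one of 2.80 (1.83 to 4.14). Cxcr4, which retains neutrophils in the marrow, had 18 UMIs in 12 null-labelled cells and 557 UMIs in 36.5% of control-labelled cells, a ratio of 0.690 (0.406 to 1.10) with an interval that spans 1 with total UMIs. With TMM factors 3 of the 4 counted chemokine receptor genes were 2-fold or more lower, Cxcr4 among them. The formyl peptide receptor Fpr2, which senses bacterial peptides, had a ratio of 2.16 (1.75 to 2.64), while the complement receptor C5ar1 had one of 0.956 (0.700 to 1.28).

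Cd14, the lipopolysaccharide co-receptor, was among the genes farthest apart. It had 0 to 74 UMIs (median 3.5) in null-labelled and 0 to 6 UMIs (median 0) in control-labelled cells, and 22 of 24 null-labelled cells but 4.39% of control-labelled cells carried it. Its summed level was 1635 and 21.0 CPM, a ratio of 77.9 (57.9 to 106). Of 9 counted pattern recognition genes 3 were 2-fold or more higher, near the 33.6% over all genes, and 1 was lower. Without the monocyte-marker cells none was lower, and with TMM factors 2 were higher and 2 lower. Irak3, a brake on Toll-like receptor signalling, had a ratio of 7.88 (5.28 to 11.5) and Trem1, an amplifier of it, one of 2.99 (2.09 to 4.17). Trem3 had one of 0.452 (0.266 to 0.718), and Clec4d one of 0.989 (0.772 to 1.25).

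Of 14 Fc and inhibitory receptors 7 were 2-fold or more lower and 2 were higher, against 16.4% lower and 33.6% higher over all genes. Without the monocyte-marker cells 5 were lower and 4 higher, and with TMM factors 8 were lower and 2 higher. Cd300ld had 3 UMIs in the null-labelled and 828 UMIs in the control-labelled cells, a ratio of 0.0774 (0.0159 to 0.227). The inhibitory lectin Clec12a had 3 and 485 UMIs, a ratio of 0.132 (0.0272 to 0.388) that was 0.0617 without the monocyte-marker cells, and the paired receptor Pilra had 102 and 473 CPM, a ratio of 0.216 (0.115 to 0.370). Fcgr4, an activating receptor for IgG, was higher, with 121 UMIs in 23 of 24 null-labelled cells and 358 UMIs in 26.0% of control-labelled cells, a ratio of 7.22 (5.83 to 8.90). The shared signalling chain Fcer1g was present in all 24 and in 97.7% of the cells, with a ratio of 1.73 (1.57 to 1.89), below 1 with TMM factors.

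Adhesion molecules were 2-fold or more higher in 2 of 12 (16.7%) and lower in 3 (25%), against 33.6% and 16.4% over all genes. Their median log2 ratio was -0.72. With TMM factors 1 was higher and 8 (66.7%) were lower, against 34.7% lower over all genes. Ceacam10 had no UMI in null-labelled cells and 550 UMIs in 32.4% of control-labelled cells, at least 8.58-fold lower against a floor of 3 UMIs in the null-labelled library. The integrin alpha chain Itgal, a part of LFA-1, had a ratio of 0.337 (0.161 to 0.625). Cd47, the signal that protects cells from being eaten, had 1069 and 268 CPM in null-labelled and control-labelled cells, a ratio of 3.98 (3.29 to 4.79), and the integrin chain Itgam one of 1.95 (1.599 to 2.36). None of 6 counted genes of neutrophil ageing was 2-fold higher and 1, Cxcr2, was 2-fold lower. Leaving out the monocyte-marker cells gave 1 higher, and TMM factors gave 4 lower.

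Granule genes that the rule did not use divided. Lcn2, the iron-withholding lipocalin of secondary granules, had 4 to 408 UMIs (median 147.5) in the null-labelled cells and 0 to 98 UMIs (median 8) in the control-labelled cells. All 24 null-labelled cells carried it, and at 30341 and 5351 CPM the ratio was 5.67 (5.47 to 5.88). Chil3 had 3583 and 81.7 CPM, a ratio of 43.9 (37.3 to 51.7). Lower were lysozyme, Lyz2, with 0 to 130 UMIs (median 1) in null-labelled and 0 to 147 UMIs (median 19) in control-labelled cells, and Pglyrp1, a peptidoglycan-binding protein, at 864 and 2826 CPM, a ratio of 0.306 (0.251 to 0.369). Of the 200 Lyz2 UMIs in null-labelled cells 164 lay in the monocyte-marker cells, so its ratio of 0.187 (0.162 to 0.215) was 0.0470 without them. Among cells under 20% S100a8 and S100a9 its log2 ratio was 0.13, and -1.87 there without the monocyte-marker cells.

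Of the rule's own genes, given as a description, Ltf had 95 and 212 UMIs in null-labelled and control-labelled cells, Camp 140 and 1880 UMIs, and Ngp 188 and 3748 UMIs. Mmp8, a collagenase, had 0 to 20 UMIs (median 4.5) in null-labelled and 0 to 50 UMIs (median 5) in control-labelled cells, a ratio of 0.413 (0.350 to 0.485). This ratio depended on S100 share. At 2 to 10%, 10 to 20% and 20 to 60% S100a8 and S100a9, null-labelled cells had Mmp8 at 470, 1661 and 1797 CPM. Control-labelled cells had 448, 1077 and 3133 CPM there. The NADPH oxidase, which makes superoxide for killing microbes, was near equal in sum: its 7 genes held 5084 CPM in null-labelled and 5352 CPM in control-labelled cells, and none differed 2-fold. With TMM factors 3 of the 7 (42.9%) were 2-fold lower, against 34.7% over all genes.

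S100 and stefin genes outside the rule were 2-fold or more lower in 7 of 10 counted and higher in 3, also with TMM factors. S100a6 had 5847 CPM in null-labelled and 13218 CPM in control-labelled cells, a ratio of 0.442 (0.411 to 0.476), and S100a11 one of 0.365 (0.326 to 0.409). The stefins are cysteine protease inhibitors encoded by near-identical copies, so single genes are uncertain. Stfa2l1 had 19 UMIs in 4 null-labelled cells and 2593 UMIs in 31.2% of control-labelled cells, Gm5483 had 42 and 3731 UMIs, and BC100530 had 0 and 454 UMIs. S100a4 and S100a10 were higher at 31.5 (17.0 to 59.6) and 9.81 (6.34 to 14.9), but these ratios were 4.68 and 0.801 without the monocyte-marker cells.

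Of 23 late neutrophil genes 6 were 2-fold or more higher and 6 lower (26.1% each), against 33.6% and 16.4% over all genes. Their median log2 ratio was 0.22. Without the monocyte-marker cells 10 were higher and 5 lower, at a median of 0.49, and with TMM factors 5 were higher and 10 lower, at a median of -0.66. Fth1, the ferritin heavy chain that stores iron, had 37657 and 4732 CPM in null-labelled and control-labelled cells, a ratio of 7.96 (7.70 to 8.23). Ferritin has processed pseudogenes that can take its reads. Ifitm3, which blocks viral entry and is induced by interferon, had 2 to 109 UMIs (median 31) in null-labelled and 0 to 21 UMIs (median 3) in control-labelled cells, a ratio of 4.98 (4.63 to 5.35). Srgn, the proteoglycan serglycin that packs granules, had 7355 and 1566 CPM, and its ratio of 4.70 (4.37 to 5.04) was 19.4 in secondary-high cells. Slpi, a protease inhibitor, had 817 and 3299 CPM, a ratio of 0.248 (0.202 to 0.301).

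Of 17 transcription factors 2 (11.8%) were at least 2-fold higher and 3 (17.6%) at least 2-fold lower, against 33.6% and 16.4% over all genes. With TMM factors 7 (41.2%) were lower and none higher, against 34.7% and 15.1% over all genes. Cebpb, the factor of emergency granulopoiesis, had 1972 CPM in null-labelled and 802 CPM in control-labelled cells, a ratio of 2.46 (2.15 to 2.80). Cebpd had 11 UMIs in 7 null-labelled cells and 1765 UMIs in 73.7% of control-labelled cells, a ratio of 0.133 (0.0663 to 0.239). Of 18 genes of actin and migration 2 (11.1%) were higher and 3 (16.7%) lower, the latter near the share over all genes. With TMM factors 9 (50%) were lower and 1 was higher, as was 1 when the monocyte-marker cells were left out. Dock2, the activator of Rac in migrating leukocytes, had 3 UMIs and 489 UMIs, a ratio of 0.131 (0.0269 to 0.385), and profilin, Pfn1, had a ratio of 0.419 (0.338 to 0.514). Beta-actin, Actb, had 15276 and 13592 CPM, a ratio of 1.12 (1.07 to 1.18) that is below 1 with TMM factors.

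Glycolysis genes were higher in 5 of 16 and lower in 3, near the 33.6% and 16.4% over all genes, and with TMM factors none was higher. Hexokinase 3, Hk3, the myeloid isoform, had 6 and 448 UMIs in null-labelled and control-labelled cells, a ratio of 0.286 (0.104 to 0.628), and Pgam1, an enzyme late in the pathway, had a ratio of 3.47 (2.74 to 4.35). Ribosomal protein genes were higher in 16 of 22 with a median log2 ratio of 1.48, and mitochondrially encoded genes in 7 of 10 with a median of 1.15, or in 6 and 0 with TMM factors. Without the monocyte-marker cells 1 of 22 and 1 of 10 remained 2-fold higher, at medians of 0.24 and 0.47. Among cells under 20% S100a8 and S100a9 the medians were -0.032 and -0.20, and -2.05 and -1.25 there without the monocyte-marker cells.

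The genes farthest apart by the bound of the interval nearest to 1 included several not yet described. Among the 15 highest, Saa3 had 2244 UMIs in 6 null-labelled cells and none in the control-labelled cells, at least 15977-fold higher against 3 UMIs in the control-labelled library, and at least 59.3-fold without the monocyte-marker cells. It was also higher in null-labelled B cells, at 560 CPM against 0.673 CPM in control-labelled B cells. The interferon-inducible Ifi211 had 30 UMIs in 12 null-labelled cells and none in the control-labelled cells, at least 214-fold higher. The kinase Ikbke, which activates interferon regulatory factors, had 34 UMIs in 15 cells and 1 UMI, a ratio of 726 (122 to 29518). Metallothionein Mt1, a zinc-binding protein, had 103 and 11 UMIs, a ratio of 200.007 (107 to 413). The long non-coding RNA AW112010 had 285 UMIs in 18 cells and 34 UMIs, a ratio of 179 (125 to 264). Dock10 and the transcription factor Pou2f2 had ratios of 136 (64.1 to 332) and 83.9 (46.0 to 163), while Timp1 and F10 lay almost wholly in the monocyte-marker cells, with 38 of 38 and 33 of 36 UMIs. In secondary-high cells these 15 genes were also 2-fold or more higher, except Timp1, which had 2 and 0 UMIs there and no ratio. Mt1 had a ratio of 141 in secondary-high cells, AW112010 93.0, Dock10 10.7 and Ikbke 9.43.

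Among the 15 lowest, Cyp4f18, which breaks down leukotriene B4, had 1 UMI in the null-labelled and 1124 UMIs in the control-labelled cells, a ratio of 0.0190 (0.000481 to 0.106). The adhesion molecule Jaml had 2 and 1364 UMIs, a ratio of 0.0313 (0.00379 to 0.113) that was 0.0654 without the monocyte-marker cells, and Hacd4 had 3 and 1271 UMIs, a ratio of 0.0504 (0.0104 to 0.148). Fam129a, Dck and Bmx had none in the null-labelled cells and 832, 413 and 394 UMIs in the control-labelled cells, at least 12.98-, 6.45- and 6.15-fold lower. Dck is the kinase of the deoxynucleoside salvage pathway and Bmx a tyrosine kinase. Sephs2 had 1 and 736 UMIs and Ikbkap 0 and 370 UMIs. In secondary-high cells these 15 genes were also 2-fold or more lower, except Sephs2 and Cxcr2, whose ratios were 0.691 and 0.586.

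Within the control-labelled library the secondary-low cells varied with their S100 share. From the 62 cells at 2 to 10% S100a8 and S100a9, over 89, 308 and 613 cells, to the 66 cells at 40% or more, Csf3r went down through 3125, 2497, 1611, 807 and 458 CPM and Il1b through 2901, 2169, 869, 221 and 53.6 CPM. Retnlg went up through 5241, 13738, 39147, 54359 and 51501 CPM and Ly6g through 44.8, 168, 478, 941 and 1002 CPM. Depth moved with these classes, with median UMIs of 1120.5, 1270, 1811, 2660 and 3471.5 per cell, and its part was not tested. The rule therefore took in a range of cells, of which those low in S100a8 and S100a9 were high in Csf3r and Il1b.

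In several genes the null-labelled cells did not follow the control-labelled cells of like S100 share. At 2 to 10% the 8 null-labelled cells had Csf3r at 58.7 CPM and the 62 control-labelled cells at 3125 CPM, Lcn2 at 23982 and 750 CPM, and Isg15 at 1331 and 202 CPM. The monocyte-marker cells held 70.5% of the UMIs of those 8 cells, and the other 6 had Csf3r at 66.3 CPM, Lcn2 at 32309 CPM and Isg15 at 2521 CPM. Over all cells under 20% S100a8 and S100a9, 18 null-labelled and 151 control-labelled, the log2 ratio was -4.44 for Csf3r, -3.74 for Cxcr2 and 2.68 for Il1r2. The median over the interferon list was 2.66 there, over the checkpoint list 1.22 and over all 1596 genes counted -0.29. When the monocyte-marker cells were left out, these log2 values were -4.00 for Csf3r, -3.04 for Cxcr2, 3.28 for Il1r2, 3.03 for the interferon list, 1.65 for the checkpoint list and -0.40 over 1427 genes. Csf3r, Cxcr2, Il1r2 and the interferon list thus kept their direction when cells of a like S100 share were compared. The differences in Ly6g, Mmp8, Retnlg and Il1b depended on S100 share, as given with each gene.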

How the data were processed

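The deposited files are tables of raw UMI counts per gene and barcode for 2 libraries, made by the authors with Cell Ranger 3.0 on mm10, per the submitters' processing notes, which also name Seurat; the file headers give software version 3.1.0. All 31053 features were used as deposited. Barcodes with at least 200 genes and at most 10% mitochondrial UMIs were kept, and the marker rule was applied to their counts. UMIs were summed over the cells of a library and divided by their total to give CPM. A gene was counted from 50 CPM in one or both libraries and 30 UMIs in their sum, and was called by size alone, at 2-fold. A gene at 0 UMIs in a library was set to a floor of 3 UMIs there, which gives a bound.

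Intervals are 95%: exact Poisson for sums, exact Clopper-Pearson for shares, and exact conditional for ratios of CPM. They cover counting error only, since each genotype is 1 library and cells are not replicates. No doublets were removed. The cells and gene lists were chosen with earlier results of these data known. The rule for named genes took the 15 highest and 15 lowest counted genes by the interval bound nearest to 1, leaving out predicted, immunoglobulin, mitochondrial and sex-linked genes and those of the rule, together with the given markers, the genotype genes, all members of lists of up to 12 genes and, in longer lists, the 4 highest by CPM and the 4 largest ratios in each direction. The 44 lists hold 485 genes, of which 308 were counted. Coordinates are those of GENCODE vM21 (GRCm38), and promoters are from RefSeq GRCm38.p6.

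Python 3.11.15 with numpy 2.4.6, scipy 1.17.1, pandas 2.3.3 and scanpy 1.11.5 was used, and edgeR 4.0.16 in R 4.3.3 gave the TMM factors. The scripts were tested on simulated data. Alternatives changed the limits of the rule, the depth per cell, doublet removal with Scrublet, the weight of cells, the scaling and the gene filter.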

Additional observations from a re-analysis of the deposited data

How the results depend on the processing

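No paired analysis was possible because each genotype has 1 library, and for the same reason no library could be left out. The null-over-control ratio of the share of secondary-low cells, 0.0658, was 0.110 with a limit of 2% on Ngp, Camp and Ltf and 0.0349 among cells with a Csf3r UMI. Chosen after seeing the data, it was 0.372 among cells under 20% S100a8 and S100a9, 0.333 among those without monocyte-marker cells, and 0.585 with no limit on Ngp, Camp and Ltf. The count of 933 genes 2-fold or more higher (33.6%) was 419 (15.1%) with TMM factors and 420 (15.1%) with median-of-ratios factors. With a 200 CPM minimum it was 297 of 835 genes (35.6%). In settings chosen after seeing the data it was 220 of 1596 genes (13.8%) among cells under 20% S100a8 and S100a9. Among those without monocyte-marker cells it was 207 of 1427 (14.5%), and with no secondary granule limit 330 of 2164 (15.2%). The count of 456 lower genes (16.4%) was 963 and 962 (34.7% each) under the same factors and 134 (16.0%) under the same minimum. With 30 UMIs and no CPM minimum it was 736 of 4937 genes (14.9%). Under a changed CPM minimum these counts thus moved with the number of genes counted, while the shares given so far stayed near those of the main setting. The share of higher genes with no CPM minimum was further off, at 1294 of 4937 genes (26.2%) against 33.6%. The share ratio and both counts stayed within 1.5 times or their interval in 36 combinations of result and setting. Among these were lower counts whose share moved. They were 421 of 1596 genes (26.4%) under 20% S100a8 and S100a9 and 457 of 1427 (32.0%) there without monocyte-marker cells. With no secondary granule limit 340 of 2164 genes (15.7%) were lower. Signs were followed for the 15 highest and 15 lowest genes, the given markers and lists with a median 2-fold or more from equal. Among these the sign turned in 8 cases. Other genes in the text, such as Ly6g and Mmp8, were not in this count. Under 20% S100a8 and S100a9 the log2 ratio of Lyz2 was 0.13 and the medians of ribosomal and mitochondrially encoded genes were -0.032 and -0.20. Without monocyte-marker cells they were -1.87, -2.05 and -1.25 there, Retnlg was 0.39 and Ccl5 -0.62, so the reversal of Lyz2 was not seen without those cells. With no secondary granule limit the median of 3 other cytokine genes was -1.02. The cause of the other reversals was not tested. Medians nearer to equal also turned with TMM factors, among them that of all genes, from 0.44 to -0.44, and those of growth factor receptors, late genes, transcription factors and pattern recognition genes. The interferon median ran from 2.39 to 4.04 over all settings, Csf3r from -4.44 to -2.29 and Il1r2 from 1.98 to 3.37. Scrublet's highest scores marked 2 null-labelled and 9 control-labelled secondary-low cells. With 24 null-labelled cells, a gene with few UMIs there has a wide interval.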
